A study of Mus musculus with 8 samples.

Results

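mmu-miR-139-5p and mmu-miR-139-3p (miR-139-5p and miR-139-3p below) are the products of the left and right arm of 1 hairpin, mir-139, and they are 2 of the 567 mouse miRNAs on the array used here. They were picked by name. The pair was proposed because miR-139-5p was already known from these data to lie lower in CpG-treated cells, so every difference between treatments given below is a description and carries no test. Both arms were measured on all 8 arrays.

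The cells were dendritic cells grown from the marrow of wild-type C57BL/6 mice, a common inbred strain, in medium with GM-CSF at 40 ng/ml. GM-CSF is a growth factor that turns marrow precursors into dendritic cells and related myeloid cells. The non-adherent cells of day 9 were kept overnight without addition (4 samples, the untreated group) or with 10 µM of ODN1826, a class B CpG oligonucleotide (4 samples, the CpG group). Such oligonucleotides carry unmethylated CG pairs and are sensed by the endosomal receptor TLR9. The labels call the control both medium alone and PBS, and no sample received an oligonucleotide without CG pairs. They number the replicates from 1 to 4, and the array descriptions give each DC number to an untreated and a CpG sample. This may mean that each culture was split between the treatments, but the labels do not say so. Nor do they name separate mice or cultures, so the spread between arrays may be technical in part. Total RNA was labelled with Cy3 and each sample was hybridised to 1 of the 8 arrays of a single slide.

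A miRNA hairpin is cut into a short duplex, and 1 strand of it is usually kept in the Argonaute complex as the guide while the other is mostly lost. The guide pairs with messenger RNAs chiefly through its seed, bases 2 to 8, and lowers their translation and stability. miR-139 lies within an intron of Pde2a, which encodes a phosphodiesterase that breaks down cAMP and cGMP. miR-139-5p is best known from tumour cells, where it is often low and where it represses genes of growth and migration such as Igf1r, Rock2 and Cxcr4. Messenger RNA was not measured on these arrays, so neither Pde2a nor any target is reported here.

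The mature sequences are shown because the arms carry unrelated seeds and are read by separate probes. Capitals mark the seed in both arms, and in the hairpin they mark the arms themselves. All are from RefSeq (GRCm38.p6, plus strand).
miR-139-5p: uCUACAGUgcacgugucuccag
miR-139-3p: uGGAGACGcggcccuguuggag
mir-139 hairpin: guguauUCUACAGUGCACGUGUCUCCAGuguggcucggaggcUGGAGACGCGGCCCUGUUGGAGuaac

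Each arm is 22 bases long. The 5p arm occupies bases 7 to 28 and the 3p arm bases 43 to 64 of the 68-base hairpin. In the minimum-energy fold computed with RNAfold, 19 of the 22 bases of the 5p arm paired with the 3p arm. None of the other miRNAs among 1679 RefSeq mouse mature sequences had the seed of either arm, so neither belongs to a seed family in that table. In RefSeq the only gene spanning the hairpin was Pde2a, on the same strand. The 3p arm is richer in G and C, with 68.2% of its bases against 54.5% in the 5p arm.

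The array read miR-139-5p with 3 probes and miR-139-3p with 2. In the array's annotation (mm9, chromosome 7), the targets of the 5p probes are chr7:108623901-108623917, chr7:108623902-108623917 and chr7:108623903-108623917, which share 1 end and are 17, 16 and 15 bases long. Those of the 3p probes are chr7:108623940-108623953 and chr7:108623941-108623953, which are 14 and 13 bases long. The shared ends lie 36 bases apart, as do the 3′ ends of the mature arms in RefSeq. If each span ends at the 3′ end of its miRNA, the longest 5p probe reads bases 6 to 22 and the longer 3p probe bases 9 to 22, as follows.
miR-139-5p stretch: agugcacgugucuccag
miR-139-3p stretch: cggcccuguuggag
These stretches hold the 3′ part of each arm and little or none of the seed.

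Before any scaling between arrays, miR-139-5p was detected on 8 of 8 arrays at a low brightness that overlapped between the groups. The deposited total gene signal of untreated replicates 1 to 4 was 15.4, 21.4, 18.3 and 21.1 intensity units. In CpG replicates 1 to 4 it was 12.6, 15.8, 15.4 and 22.7 units. CpG replicate 4 was the brightest of the 8 arrays for this arm and CpG replicate 1 the dimmest. The error deposited with these values ran from 1.63 to 2.28 units. The group means were 19.1 ± 2.82 untreated and 16.6 ± 4.3 with CpG (SD, n = 4 each), a ratio of geometric means of 0.859.

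The arrays themselves differed in brightness. The 75th percentile of the 177 mouse miRNAs detected on all 8 arrays ran from 101 to 144 units in the untreated group and from 157 to 280.5 in the CpG group, 1.74 times as high by geometric means. Between 191 and 203 mouse miRNAs were detected on untreated arrays and between 213 and 236 on CpG arrays. Dividing by that percentile therefore lowers CpG values relative to untreated ones by 0.80 on the log2 scale. How much of the brightness came from labelling, scanning or the cells was not tested.

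After this scaling, miR-139-5p was lower with CpG by 1.01 on the log2 scale. Its scaled log2 signal, where 0 is the array's 75th percentile, was -3.15, -2.90, -3.42 and -2.91 in untreated replicates 1 to 4. It was -4.07, -4.37, -3.98 and -4.01 in CpG replicates 1 to 4. All 4 CpG arrays lay below all 4 untreated arrays. Of the 212 miRNAs tested (detected in 3 or more samples of either group), 19.8% were lower with CpG without overlap, and miR-139-5p was chosen from this contrast, so nothing is read from that. The means were -3.09 ± 0.25 and -4.11 ± 0.18 (SD, n = 4 each). The difference of -1.01 (limma SE 0.17) corresponds to a signal 2.02-fold higher in untreated cells. By this difference it ranked 5 from the lowest of the 212, and because of that choice nothing is read from the rank either.

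The size of that difference depended on how arrays were scaled. Without scaling it was -0.21 (SE 0.24), and with scaling on 4 bright hur control features it was -0.45 (SE 0.14). No source used here says what these features measure. The median difference of all tested miRNAs moved with the scaling too, from -0.19 as reported to 0.60 without scaling and 0.36 on the control features. Relative to that median, miR-139-5p lay at -0.82 as reported, -0.81 without scaling and -0.81 on the control features. A single factor per array shifts all miRNAs alike, so these values had to be nearly equal. With normexp background correction (offset 50 units) and quantile normalization together, it was -0.18 (SE 0.04), and -0.16 relative to the median. That offset exceeds the total gene signal of miR-139-5p on every array, which shrinks any log2 difference in this setting.

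**Figure D1:**
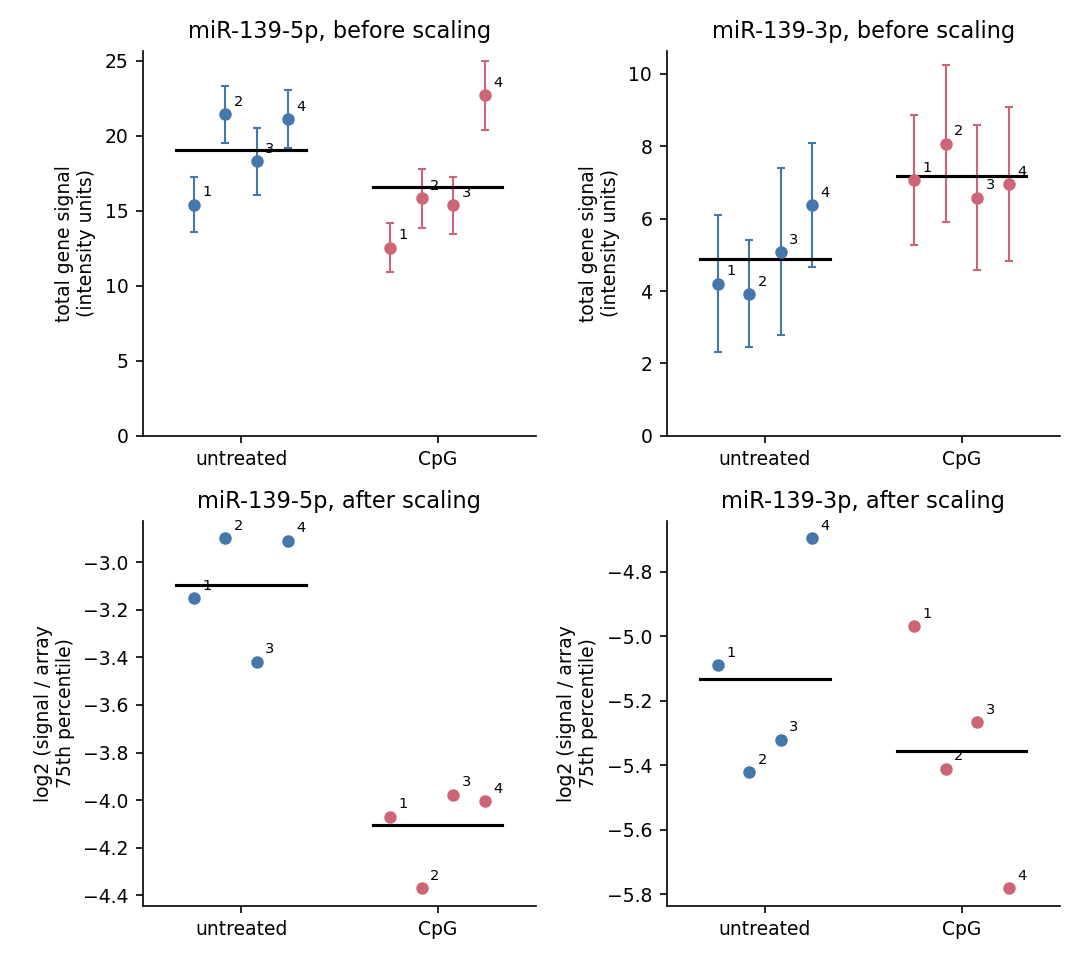
Signal of miR-139-5p (left) and miR-139-3p (right) on each array, as the deposited total gene signal in intensity units with its deposited error (top) and as log2 of the signal over the array's 75th percentile (bottom, without error bars). Points are arrays numbered by replicate, 4 per group, and black lines are group means. Before scaling miR-139-5p overlaps between groups, and after it the 4 CpG arrays lie between -4.37 and -3.98, below the untreated ones.

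The other arm read higher with CpG before scaling. The total gene signal of miR-139-3p was 4.21, 3.92, 5.08 and 6.38 units in untreated replicates 1 to 4. It was 7.07, 8.07, 6.58 and 6.96 units in CpG replicates 1 to 4. All CpG arrays thus lay above all untreated ones, as did those of 38.2% of the tested miRNAs without scaling. The narrowest gap, between 6.38 and 6.58 units, is smaller than the deposited errors, which ran from 1.48 to 2.31 units. The means were 4.90 ± 1.1 untreated and 7.17 ± 0.636 with CpG (SD, n = 4 each), a ratio of geometric means of 1.49. The arm was detected on 3 of 4 untreated arrays, missing on replicate 1, and on 4 of 4 CpG arrays.

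After scaling, miR-139-3p overlapped between the groups. Its scaled log2 signal was -5.09, -5.42, -5.32 and -4.70 in untreated replicates 1 to 4, and -4.97, -5.41, -5.27 and -5.78 in CpG replicates 1 to 4. Untreated replicate 4 was the highest and CpG replicate 4 the lowest, and the other 6 arrays lay between -5.42 and -4.97. The means were -5.13 ± 0.32 and -5.36 ± 0.34 (SD, n = 4 each), and the difference of -0.22 (limma SE 0.22) was no larger than the spread between replicates. Its sign was opposite without scaling, at 0.57 (SE 0.22), and on the hur control features, at 0.33 (SE 0.19). Relative to the median of all tested miRNAs it was -0.03 as reported, and likewise -0.03 in both of those settings. They differ only by a factor per array, so this value could hardly move. Leaving out either untreated replicate 4 or CpG replicate 4 brought the scaled difference to -0.08.

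The ratio of the arms within an array is free of any scaling by a single factor, but here it rests on a dim denominator: miR-139-3p was not detected on untreated replicate 1, and 12 of 40 untreated spots of its single working probe were well above background. The log2 ratio of miR-139-5p to miR-139-3p was 1.94, 2.52, 1.90 and 1.79 in untreated replicates 1 to 4. It was 0.90, 1.04, 1.29 and 1.78 in CpG replicates 1 to 4. CpG replicate 4 nearly reached untreated replicate 4, and the other 3 CpG arrays lay 0.50 to 0.89 lower than it. The means were 2.04 ± 0.33 and 1.25 ± 0.39 (SD, n = 4 each), a difference of -0.79 (SE 0.25). The ratio was lower without overlap with CpG for 16.1% of 31 precursors with both arms tested. miR-139 is among those counted, by a gap of 0.01. The level of one arm cannot be set against that of the other, since each has its own probes.

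The 17-base and 16-base probes of miR-139-5p gave nearly the same difference. The 17-base probe had 6 spots per array, all 6 well above background on each of the 8 arrays. Its mean processed signal was 21.4, 32.5, 23.4 and 28.9 units in untreated replicates 1 to 4, and 18.0, 23.5, 21.4 and 34.3 units in CpG replicates 1 to 4. After scaling these gave a difference of -0.95 (SE 0.17), with all 4 CpG arrays below the untreated ones. The 16-base probe had 7 spots per array, of which 4 to 7 were well above background. It read 10.2, 15.2, 14.0 and 16.0 units in untreated replicates 1 to 4 and 9.01, 11.2, 11.9 and 15.7 units in CpG replicates 1 to 4, with a scaled difference of -1.02 (SE 0.16). The 15-base probe was close to background, with means from 0.959 to 3.15 units and 1 of its 28 untreated and 0 of its 28 CpG spots well above background. Its scaled difference was -1.69 (SE 0.18), with CpG values below the floor of -6.55 used for miRNAs.

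For miR-139-3p the signal came from a single probe. The 14-base probe had 10 spots per array and read 5.58, 6.04, 7.51 and 8.91 units in untreated replicates 1 to 4. In CpG replicates 1 to 4 it read 9.86, 11.9, 9.30 and 10.9 units. Of its 40 spots per group, 12 were well above background in untreated and 28 in CpG samples. Its scaled difference was -0.20 (SE 0.20). The 13-base probe lay at background, between -0.686 and 0.386 units, with 0 of 40 untreated and 1 of 40 CpG spots well above it. No spot of either arm was saturated. For scale, the median of the negative control spots ran from -0.54 to 0.87 units over the arrays.

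**Figure D2:**
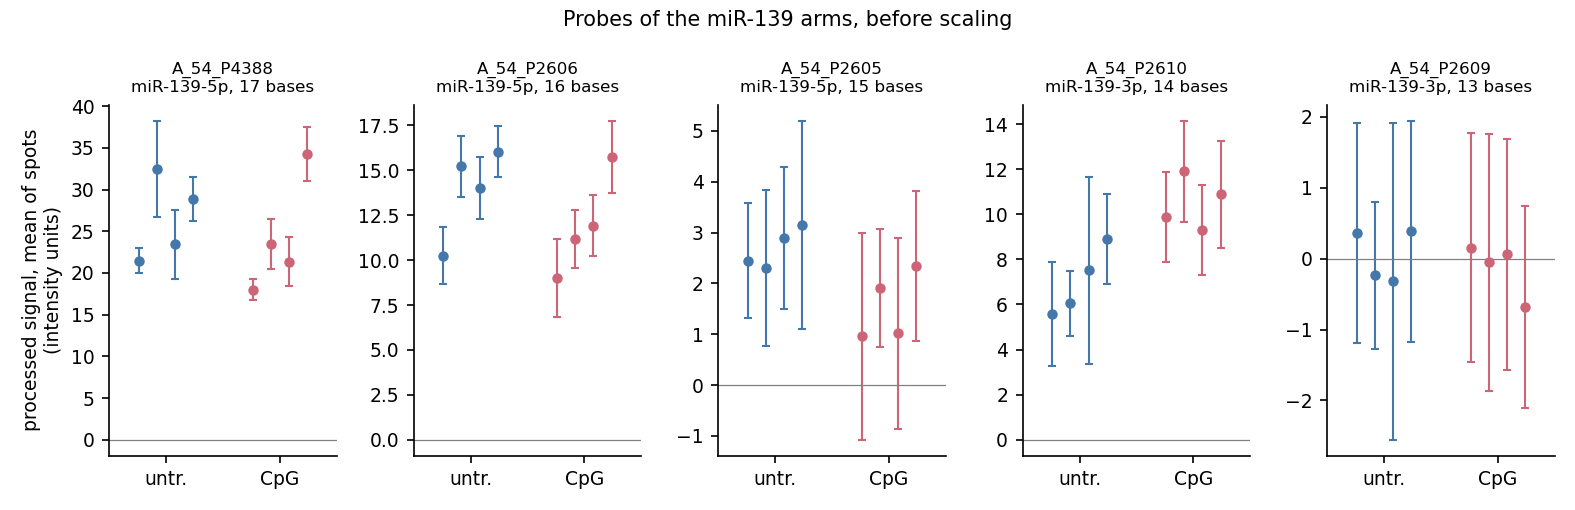
Processed signal of the 5 probes of the miR-139 arms on each array, in intensity units before scaling, as the mean over spots with the SD over spots of an array as error bars; each panel has its own axis. Untreated replicates 1 to 4 (blue) and CpG replicates 1 to 4 (red) run from left to right. The 17-base and 16-base probes of miR-139-5p overlap between groups, the 14-base probe of miR-139-3p is higher with CpG, and the 13-base probe sits around 0.

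Scatter between the spots of an array is given relative to the mean. The SD over spots was between 6.97% and 17.9% of the mean for the 17-base probe and between 8.96% and 23.9% for the 16-base probe. For the 14-base probe of the 3p arm it was between 18.9% and 55.2%, a range that overlaps that of the 16-base probe.

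The difference in miR-139-5p was also taken within each row of the slide. Each of the 2 rows of the slide held 2 arrays of each group. The scaled difference of miR-139-5p was -1.01 within both rows. That of miR-139-3p was -0.48 in row 1 and 0.03 in row 2, and the difference between the arms was -0.53 and -1.05. The groups of miR-139-5p do not overlap over all arrays, so they could not overlap within a row, and nothing is read from that.

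miR-139 was set beside other precursors whose arms were both tested. Of 164 precursors with both arms on the array, 31 qualified. In 19 of the other 30 both arms differed in the same direction, and in 12 of those both were lower. The gap between the arms' log2 differences was 0.79 for miR-139 and had a median of 0.24 among the other 30, of which 7 had a wider one. The widest were in miR-877, a mirtron of Abcf1 (guide 2.02, star 0.68), miR-674 (guide 1.21, star 0.12) and miR-125a (5p arm -0.30, 3p arm 0.66). The narrowest were in miR-140 (-0.25 and -0.27), miR-17 (-0.35 and -0.38) and miR-29c (-0.24 and -0.22). miR-139 was chosen because its 5p arm was lower with CpG, which favours a wide gap, and its 3p arm is dim. Nothing is read from its place among the 31.

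Within groups, the arms of miR-139 correlated weakly from array to array. The Pearson correlation of their scaled deviations from the group means was 0.19 over the 8 arrays, against a median of 0.58 among the other 30 precursors, whose values ran from -0.39 to 0.99. Over the 8 scaled values it was 0.40, with a Spearman rho of 0.14, and over the log2 signals before scaling it was -0.25. All values of an array share its scaling factor. The total gene signal of miR-139-3p was 3.92 to 8.07 units, with deposited errors of 1.48 to 2.31 units. The part of such error in the weak correlation was not tested.

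**Figure D3:**
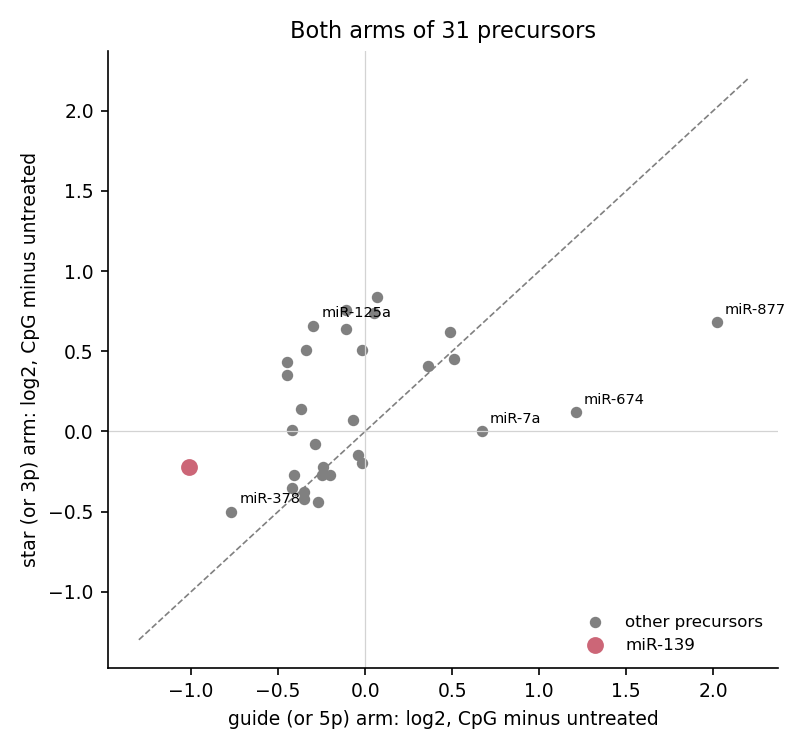
Log2 difference, CpG minus untreated, of the guide or 5p arm (horizontal) and the star or 3p arm (vertical) for 31 precursors after scaling; the dashed line marks equal differences. miR-139 (red), chosen because its 5p arm was lower with CpG, lies farthest to the left, at -1.01 and -0.22, above the line.

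The miRNAs whose scaled pattern was most like that of miR-139-5p over the 8 arrays were taken from the 176 others detected on all of them. They were miR-484 (Pearson r 0.99, Spearman rho 0.95), miR-223 (0.98 and 0.95), miR-30c (0.98 and 0.86), miR-16 (0.98 and 0.93) and miR-26a (0.95 and 0.88). All 5 were lower with CpG after scaling, by log2 differences of -0.66, -0.60, -0.81, -0.49 and -0.60, smaller than the -1.01 of miR-139-5p. They were picked for likeness across both groups, so that direction follows largely from the choice. When the group means were removed first, the closest were miR-484 (r 0.94), miR-1224 (r 0.90) and miR-532-5p (r 0.90). These correlations are over 8 arrays that share 1 slide and 1 scaling factor each.

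After scaling, most other miRNAs within introns of protein-coding genes had a negative difference, and without scaling none did. Of 34 such miRNAs listed, 32 were found on the array by name and 26 were tested. After scaling, 23 of these 26 had a negative difference, as had 137 of all 212. Groups did not overlap in 7 of the 23, or 26.9% of the list, near the 19.8% (42) over all tested miRNAs. A single one, miR-877, was higher without overlap, as were 7.08% of all. The median difference was -0.32 in the list and -0.19 over all tested miRNAs. Without scaling, 0 of the 26 had a negative difference and the median was 0.48 in the list and 0.60 over all, with miR-378 the lowest of the list at 0.03. miR-139-5p, at -0.21, was 1 of 6 of the 212 tested miRNAs with a negative difference in that setting. In the list the lowest scaled values were those of miR-378 of Ppargc1b at -0.77 (SE 0.22), miR-149 of Gpc1 at -0.72 (SE 0.26) and miR-26a, which lies in Ctdsp family genes, at -0.60 (SE 0.16). The highest were miR-877 at 2.02 (SE 0.21), miR-455 of Col27a1 at 1.30 (SE 0.45) and miR-7a at 0.67 (SE 0.23). No tested member of the list lay as low as miR-139-5p, with or without scaling, but miR-139-5p was chosen for being lower with CpG.

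All 3 myeloid marker miRNAs, miR-223, miR-142-3p and miR-142-5p, were detected on all 8 arrays, and miRNAs cannot tell dendritic cells from macrophages or granulocytes here. Their summed signal, in units of the array's 75th percentile, was 19.3 to 22.6 in untreated and 14.3 to 17.7 in CpG samples, so it lay lower with CpG after scaling. The scaled log2 differences were -0.60 for miR-223, whose groups did not overlap, and -0.20 for miR-142-3p and -0.02 for miR-142-5p, whose groups overlapped. Without scaling all 3 were positive, at 0.20, 0.60 and 0.78. The erythroid markers miR-451, miR-144 and miR-486, endothelial miR-126-3p, stromal miR-143, miR-145 and miR-214, hepatic miR-122, muscle miR-1 and miR-133a and lymphoid miR-150 were detected on 0 arrays. Lymphoid miR-181a was detected on all 8, and epithelial miR-200c and miR-141 each on 1 untreated and 4 CpG arrays. The part of cell composition in the miR-139 values was not tested, and fewer cells of a type cannot be told apart from less RNA per cell in these bulk samples.

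**Figure D4:**
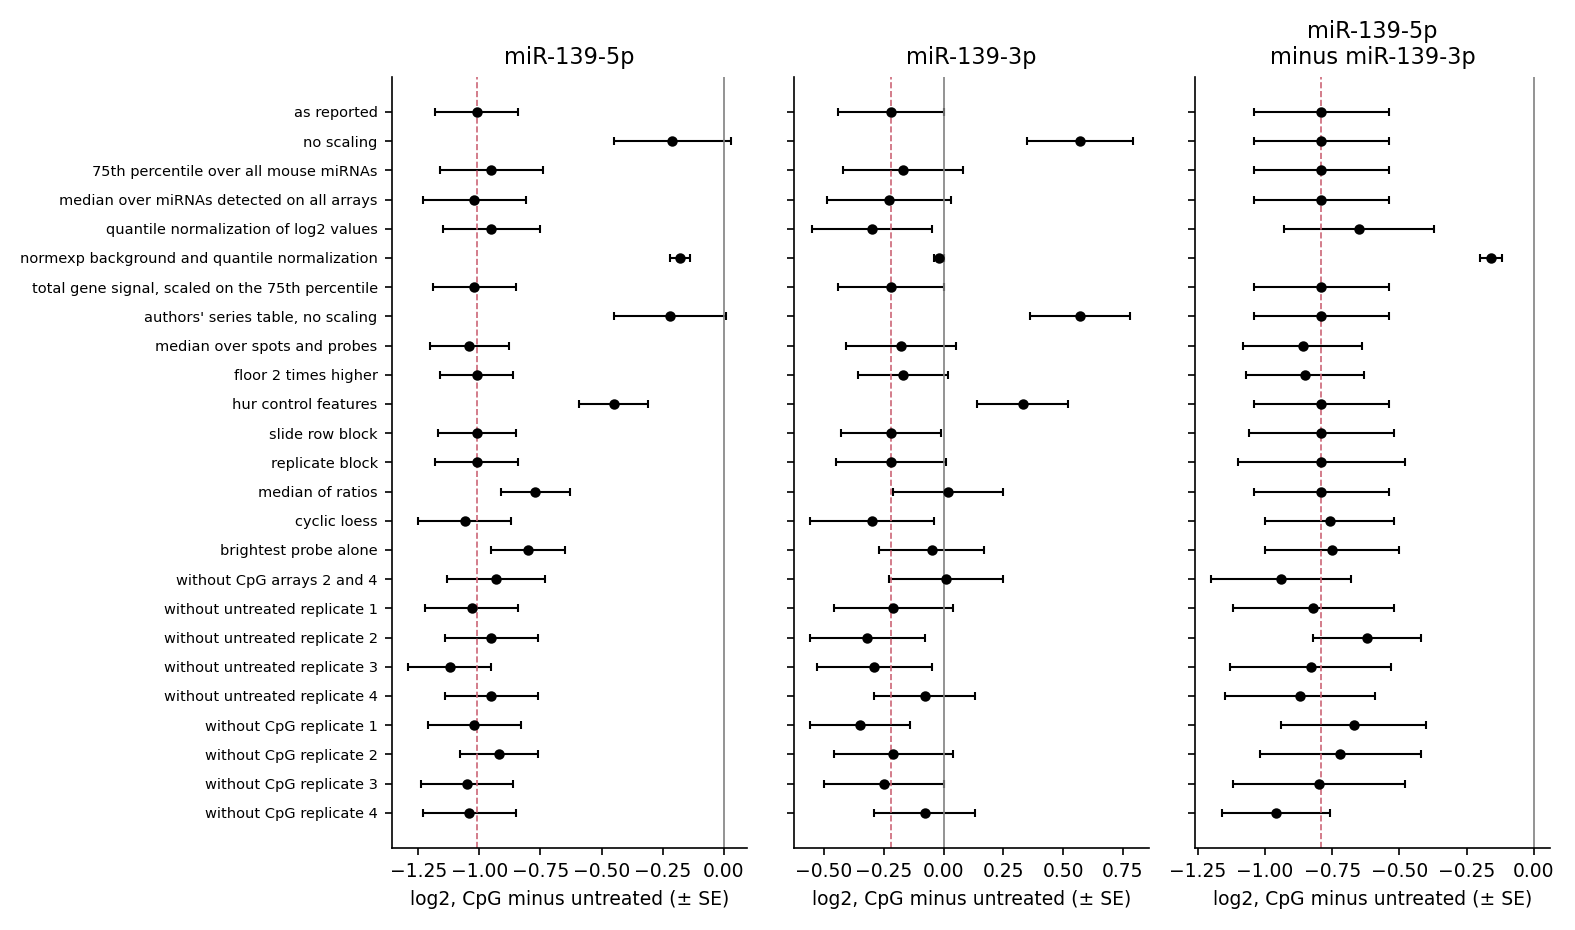
Log2 difference, CpG minus untreated, of miR-139-5p, of miR-139-3p and of the arm ratio under each setting, with the standard error as bars; the dashed line is the value as reported and the grey line is 0. miR-139-5p stays below 0 between -1.12 and -0.18, miR-139-3p crosses 0, and the arm ratio stays below 0 between -0.96 and -0.16.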

How the data were processed

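The authors deposited Agilent Feature Extraction 9.5.3.1 output of each array, per the file headers, with spot intensities after background subtraction and detrending and no scaling between arrays, plus, for each miRNA, a total gene signal with its error and whether it was detected. The authors' deposited series table holds the same total gene signals for 256 mouse miRNAs (100% equal within 0.1%, or 0.01 in place of values at or below 0). The submitters' processing notes name limma, with no version.

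Spots without outlier flags were averaged per probe and probes per miRNA. Signals were divided by the array's 75th percentile over the 177 miRNAs detected on all 8 arrays, floored at 0.0107 and taken to log2. miRNAs detected on at least 3 of 4 arrays of a group (212) were fitted with limma 3.58.1 in R 4.3.3, tested on simulated data. Only its differences and standard errors are given. ViennaRNA 2.7.2, Python 3.11.15 and matplotlib 3.10.9 were also used. The number of arrays limits the precision.

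The members, lists and rules were chosen with earlier results of these data known. Named are the members, the 5 and 3 most similar miRNAs, the 3 widest and 3 narrowest arm pairs, the 3 lowest and 3 highest intronic miRNAs, and the markers. Array names were matched to RefSeq exactly (139 of 567, including both members). The processing was varied in its scaling, background, probe summary, filter, floor and blocking, and by leaving out each array.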

Additional observations from a re-analysis of the deposited data

Results flagged for a closer look

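In 16 sets of 4 arrays of 1 group, no array passed the cutoff for lying far from the other 3 (gap over range above 0.829). The sets covered the signals of both arms, their ratio and the probes with spots above background. With 4 values per set, this rule flags only an extreme array, so smaller departures are not excluded.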

How the results depend on the processing

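The log2 difference of miR-139-5p, -1.01 as reported, kept its sign in 24 of 24 alternatives and stayed within 1 SD of replicates in 19 of them. The others gave -0.21 without scaling, -0.22 in the authors' series table, -0.45 on the hur control features, -0.77 with median of ratios and -0.18 with normexp and quantile normalization. miR-139-3p, -0.22 as reported, turned to 0.57 without scaling, 0.57 in the authors' series table and 0.33 on the control features. It stayed within 1 SD in the other 21 and kept its sign in 19 of 24. The difference between the arms, -0.79 as reported, moved beyond 1 SD in 1 alternative, to -0.16 with normexp and quantile normalization. A single factor per array cancels in it, so several of the alternatives could not move it. Blocking by slide row or replicate, balanced over the groups, could not move any of these differences. Leaving out 1 array gave -1.12 to -0.92 for miR-139-5p, -0.35 to -0.08 for miR-139-3p and -0.96 to -0.62 for the arms. The scaled values of miR-139-5p and the arm ratio did not overlap between groups. Leaving out arrays could therefore not change the sign of either difference. miRNAs lower without overlap numbered 42, and 0 without scaling, 21 with quantile normalization and 17 when the percentile was taken over every mouse miRNA. The cause of these differences was not tested. Same-numbered samples correlated at 0.28, -0.26, 0.25 and 0.10 in their deviations, and 1 of 4 correlated best with its own number. So few values cannot show whether same-numbered samples came from the same culture. With a replicate block the differences were -1.01 (SE 0.17), -0.22 (SE 0.23) and -0.79 (SE 0.31). After seeing the data, cyclic loess, the brightest probe alone, median of ratios and a fit without CpG replicates 2 and 4 were added, as were the unscaled values of the intronic list and the myeloid markers. Signal over background limits miR-139-3p.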
